A study of Mus musculus with 367 samples.

Results

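Vitamin A reaches tissues as retinol bound to a carrier in blood, and cells turn it into retinoic acid, the form that acts on genes. Alcohol dehydrogenases and related enzymes oxidise retinol to retinaldehyde, retinaldehyde dehydrogenases oxidise that to retinoic acid, and CYP26 enzymes break retinoic acid down. Inside the cell, CRABP proteins bind retinoic acid, and receptors of the RAR family carry its signal to DNA. In skin this pathway is known for its part in patterning the dermis and in hair follicle and epidermal differentiation. The 9 genes described here cover these steps: the binding proteins Crabp1 and Crabp2, the blood carrier Rbp4, the retinol oxidising enzyme Adh1, the retinaldehyde dehydrogenases Aldh1a1 and Aldh1a3, the degrading enzyme Cyp26b1, and the receptors Rarb and Rarg. They were chosen by name, with earlier results of these data known, from the 50600 gene identifiers of the expression tables, and all 9 were found.

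The cells came from Sm22-Cre;tdTomato mice of mixed background, given as 3 to 8 weeks old, with a square excisional wound of 1.5 cm a side on the back. Cre was driven by the promoter of Tagln, the gene of SM22, so that tdTomato marked cells in which that promoter was or had been active. Wound tissue pooled from 2 to 3 mice per time point was collected at post-wounding days 12, 15 and 21 (PWD12, PWD15 and PWD21), and viable tdTomato-high cells were captured singly on C1 chips and sequenced over the full length of their cDNA. All groups shared the alleles and the wound, no unwounded skin was among the samples, and the comparisons below ask how the genes differ between days and between kinds of tdTomato-high cells.

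There were 367 cells from 7 captures, 3 at day 12, 2 at day 15 and 2 at day 21. Of these, 292 passed filters on estimated depth, gene number and mitochondrial share, and the medians of the captures lay between 951133 and 2337318 estimated fragments per kept cell. Expression is given as FPKM, a fragment count scaled by transcript length and library size, so levels of different genes can be set beside each other. Cells were sorted into kinds by 3 genes that are not among the 9. Matrix cells had at least 1000 FPKM of the collagen gene Col1a1, below 100 FPKM of the pericyte gene Rgs5 and below 50 FPKM of the myeloid gene Tyrobp. Mural cells had at least 500 FPKM of Rgs5 with below 50 FPKM of Tyrobp, and myeloid cells had at least 500 FPKM of Tyrobp. This gave 198 matrix, 57 mural and 26 myeloid cells, and 11 kept cells fell into no kind. Markers outside the rule followed the names, although the matrix list holds the collagen genes Col1a2 and Col3a1, relatives of Col1a1. The summed FPKM of 7 matrix fibroblast genes lay at 17907 to 33180 per capture in matrix cells. In mural cells that sum lay at 1873 to 13216, and in myeloid cells at 16.7 to 10965. The sum of 6 mural genes lay at 447 to 1299 in mural cells and at 1.21 to 16.5 in matrix cells. That of 7 myeloid genes lay at 16559 to 38996 in myeloid cells and at 6.5 to 59.7 in matrix cells. The keratinocyte genes Krt5 and Epcam, the T cell genes Cd3e and Cd3g and the adipocyte genes Adipoq and Cidec were at 0 in all 198 matrix cells. The capture was taken as the replicate, since cells of a capture share their source. It is not stated whether the captures of a day came from different mice, so p-values measure the spread between captures only, and day cannot be told apart from the batch of captures made on it.

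Among the promoters of these genes, that of Rarb carries a direct repeat of the kind that RAR and RXR receptors are known to bind, and it is shown because Rarb is a textbook target of retinoic acid whose level is part of the results below. RefSeq promoter windows of GRCm38.p6, from 250 bases before to 50 bases after a transcript start, were found for 7 of the 9 genes, 10 windows in all. Both strands were searched for direct repeats of NGNTCA with 1, 2 or 5 bases between the copies, which are NGNTCANNGNTCA, NGNTCANNNGNTCA and NGNTCANNNNNNGNTCA. Of all 32851 windows, 1.25%, 1.11% and 0.861% held them. The window of Rarb was the only member window with a match, of the 5-base form. It spans chr14:16575427-16575726 on the minus strand, at a RefSeq transcript start inside the Rarb gene, and is given on the strand of the gene with the repeat in capitals, which begins 53 bases before the transcript start.
Rarb: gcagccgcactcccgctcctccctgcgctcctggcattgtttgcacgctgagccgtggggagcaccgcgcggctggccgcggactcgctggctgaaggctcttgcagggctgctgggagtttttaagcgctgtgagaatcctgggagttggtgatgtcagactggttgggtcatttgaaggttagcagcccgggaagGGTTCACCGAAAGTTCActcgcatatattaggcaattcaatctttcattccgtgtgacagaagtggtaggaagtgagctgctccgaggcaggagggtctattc
Such a match describes letters in the window and not the binding of a receptor in these cells.

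In matrix cells the 9 genes spanned about 3 orders of magnitude in level, with Crabp1 at the top. Over the 7 captures the mean FPKM was 922 ± 402 (SD, n = 7) for Crabp1, 215 ± 133 for Adh1 and 73.5 ± 72.9 for Rbp4. A middle group held Cyp26b1 at 11.7 ± 5.99, Rarg at 9.97 ± 10.3 and Crabp2 at 5.78 ± 7.3. Aldh1a1 at 1.33 ± 1.48, Rarb at 1.25 ± 1.53 and Aldh1a3 at 0.852 ± 0.917 stood lowest. Crabp1 was higher than Adh1 in 6 of 7 captures, Adh1 higher than Rbp4 in 7 of 7, and Rbp4 higher than Cyp26b1 in 6 of 7, while Cyp26b1 exceeded Rarg in 4 of 7. None of the 8 neighbouring pairs in this order differed after adjustment by an exact two-sided sign-flip permutation test over captures. The smallest adjusted p of the 8 pairs was 0.0833, and 0.0156 is the smallest unadjusted p that 7 captures allow. A single pair at that floor could not pass after adjustment over 8 pairs, and the order was taken from these same values.

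The genes also differed in how many matrix cells held them and how evenly. Crabp1 had a value above 0 in 164 of 198 matrix cells (82.8%, exact 95% interval 76.8 to 87.8), and 160 of them reached 10 FPKM. Adh1 was present in 109 cells (55.1%) and Cyp26b1 in 110 (55.6%), but at least 10 FPKM was reached in 102 cells for Adh1 and in 48 for Cyp26b1. Rarg was present in 95 cells, 31 of them at 10 FPKM or more, and Rbp4 in 74 cells, 68 of them at 10 FPKM or more. Aldh1a3 was present in 70 cells, of which 3 reached 10 FPKM. Crabp2, Rarb and Aldh1a1 were rare, with 17, 22 and 10 positive cells. The intervals cover counting error only and treat cells as if they did not share a capture. At the median depth of matrix cells, 1 fragment was worth 1.38 FPKM of Crabp1, 0.221 FPKM of Aldh1a3 and 0.247 FPKM of Rarb, taking the longest transcript of each gene. About 3 fragments or fewer, by this estimate, stood behind 35 of the 70 Aldh1a3 cells and 14 of the 22 Rarb cells, against 4 of the 164 Crabp1 cells. The sum of Crabp1 was spread widely, with 17.4% of it in the 5 highest cells, whereas the 5 highest cells held 96.4% of the Aldh1a1 sum, 96% of the Rarb sum and 86.4% of the Crabp2 sum. Both retinaldehyde dehydrogenases, which form retinoic acid itself, were thus at low levels, and their relatives Aldh1a2, Aldh1a7 and Aldh8a1 were at 0 in all 198 matrix cells, which a share of 1.52% would still allow by a limit of 3 counts (exact 95% upper limit 1.85%). Such limits concern cells with a read, not cells that express the gene.

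**Figure D1:**
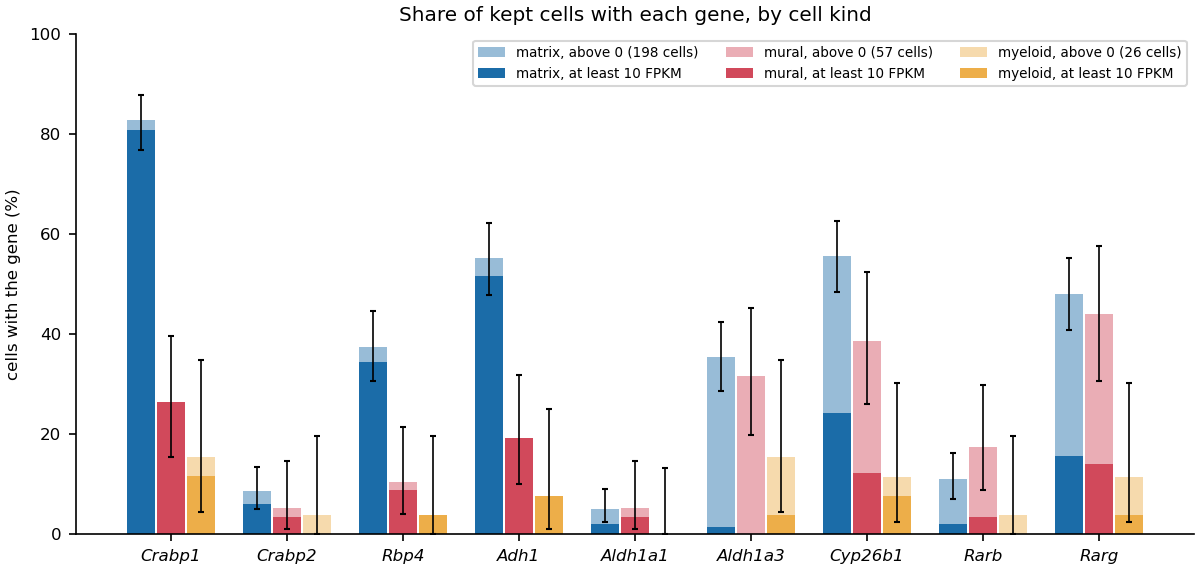
Share of kept cells with each of the 9 genes, in percent, for 198 matrix, 57 mural and 26 myeloid cells. Pale bars count values above 0 with their exact 95% binomial interval and dark bars count values of at least 10 FPKM; the pale part is small for Crabp1 (164 against 160 matrix cells) and makes up most of Aldh1a3 (70 against 3).

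The median matrix cell held 3 of the 9 genes, 42 cells held 5 or more, 7 was the most, and 2 cells held none. Cyp26b1, whose product removes retinoic acid, was present in 97 of the 164 cells with Crabp1 (59.1%) and in 13 of the 34 without it (38.2%). Adh1 was present in 57.3% of the cells with Crabp1 and 44.1% of those without, Rbp4 in 34.8% and 50%, Rarg in 48.2% and 47.1%, and Aldh1a3 in 37.8% and 23.5%. The rarer genes Crabp2 (6.1% and 20.6%), Aldh1a1 (3.05% and 14.7%) and Rarb (11.6% and 8.82%) are given the same way. These pooled shares mix captures and their differences were not tested. For Cyp26b1, the level of Crabp1 was compared between cells with and without Cyp26b1 inside each capture. The difference in mean log2(FPKM + 1), cells with minus cells without, was 0.14, -1.05 and 1.99 in the 3 captures of day 12. It was 0.67 and 1.41 at day 15, and -0.61 and 1.79 at day 21. As mean FPKM, Crabp1 was lower in the cells with Cyp26b1 in the first captures of day 12 (792 against 2058), day 15 (936 against 1042) and day 21 (480 against 1166). In the other captures it was higher. On the log2 scale Crabp1 was higher in the cells with Cyp26b1 in 5 of 7 captures, by 0.62 ± 1.18 on average (SD, n = 7). The log2 difference was within the spread between captures (exact two-sided sign-flip permutation test, p = 0.203). The cells with Cyp26b1 also had the higher median number of fragments in 5 of 7 captures, and the part of depth in this difference was not tested.

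Cell by cell, after removing the mean of each capture, the levels of Crabp1, Adh1, Rbp4, Rarg, Cyp26b1 and Aldh1a3 were weakly correlated. Over 198 matrix cells Spearman's rho between Crabp1 and the other 5 lay between -0.04 with Rbp4 and 0.05 with Cyp26b1, and the highest value among them, between Aldh1a3 and Cyp26b1, was 0.21. Among 7992 protein-coding genes in at least 20% of matrix cells, the closest to Crabp1 were Prss35 (rho 0.40) and Lgals1 (0.37). The closest to Adh1 were Gas2 (0.41) and the microfibril gene Mfap4 (0.40), and to Rbp4 the growth factor gene Tgfb3 (0.30) and the chemokine gene Ccl11 (0.28). Itih5 (0.35) and the receptor gene Tnfrsf19 (0.34) were closest to Cyp26b1. Rarg was closest to Rragc (0.27) and Dcun1d2 (0.25), and Aldh1a3 to Nol9 and Nuf2 (both 0.35). The cells share captures and depth, and these values are a description of 198 cells. The closest genes were picked as the highest among the 7992 compared, and their correlations were not tested.

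Between days, capture means of Crabp1 were lowest at day 21, and those of Adh1, Cyp26b1 and Rarg were lowest at day 12, but 0 of 8 members tested passed the test across all genes in any of the 3 comparisons. Of 13552 genes tested by limma, 0 passed between days 15 and 12 (0%), 1 between days 21 and 12 (0.00738%) and 0 between days 21 and 15 (0%). At an unadjusted p under 0.05 there were 791, 968 and 745 genes, and 3, 3 and 1 members. Averaging log2 values over cells gave 28, 70 and 0 genes past the threshold. Crabp1 (ENSMUSG00000032291, chr9:54764748-54773110, plus strand, GRCm38), the most abundant of the 9, had a mean of 1446, 955 and 946 FPKM in the 3 captures of day 12. It had 966 and 1279 FPKM at day 15, and 633 and 228 FPKM at day 21. Both day 21 captures thus lay below all 5 earlier ones, and those of days 12 and 15 overlapped. The log2 difference of day 21 from day 12 was -1.52 (SE 0.42, limma, adjusted p = 0.48 over 13552 genes), that of day 21 from day 15 was -1.55 (SE 0.46, adjusted p = 0.77), and that of day 15 from day 12 was 0.02 (SE 0.42). Without the second capture of day 21, the difference of day 21 from day 12 was -0.79 (adjusted p = 0.54).

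The share of matrix cells with Crabp1 was similar in mean at the 3 days. It was 84.5% ± 12.1 at day 12 (SD, n = 3 captures), 87.2% ± 1.16 at day 15 (n = 2) and 79.7% ± 12.9 at day 21 (n = 2), with differences within the spread between captures (exact permutation test over 210 assignments of captures to days, p = 0.905, with 0.00952 the smallest p it allows). Cells with at least 100 FPKM made up 77.2% ± 11, 74.9% ± 9.77 and 52.6% ± 12 (p = 0.162, same exact permutation test). The median matrix cell held 557, 783 and 660 FPKM of Crabp1 in the captures of day 12, 497 and 983 FPKM at day 15, and 342 and 79.2 FPKM at day 21.

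**Figure D2:**
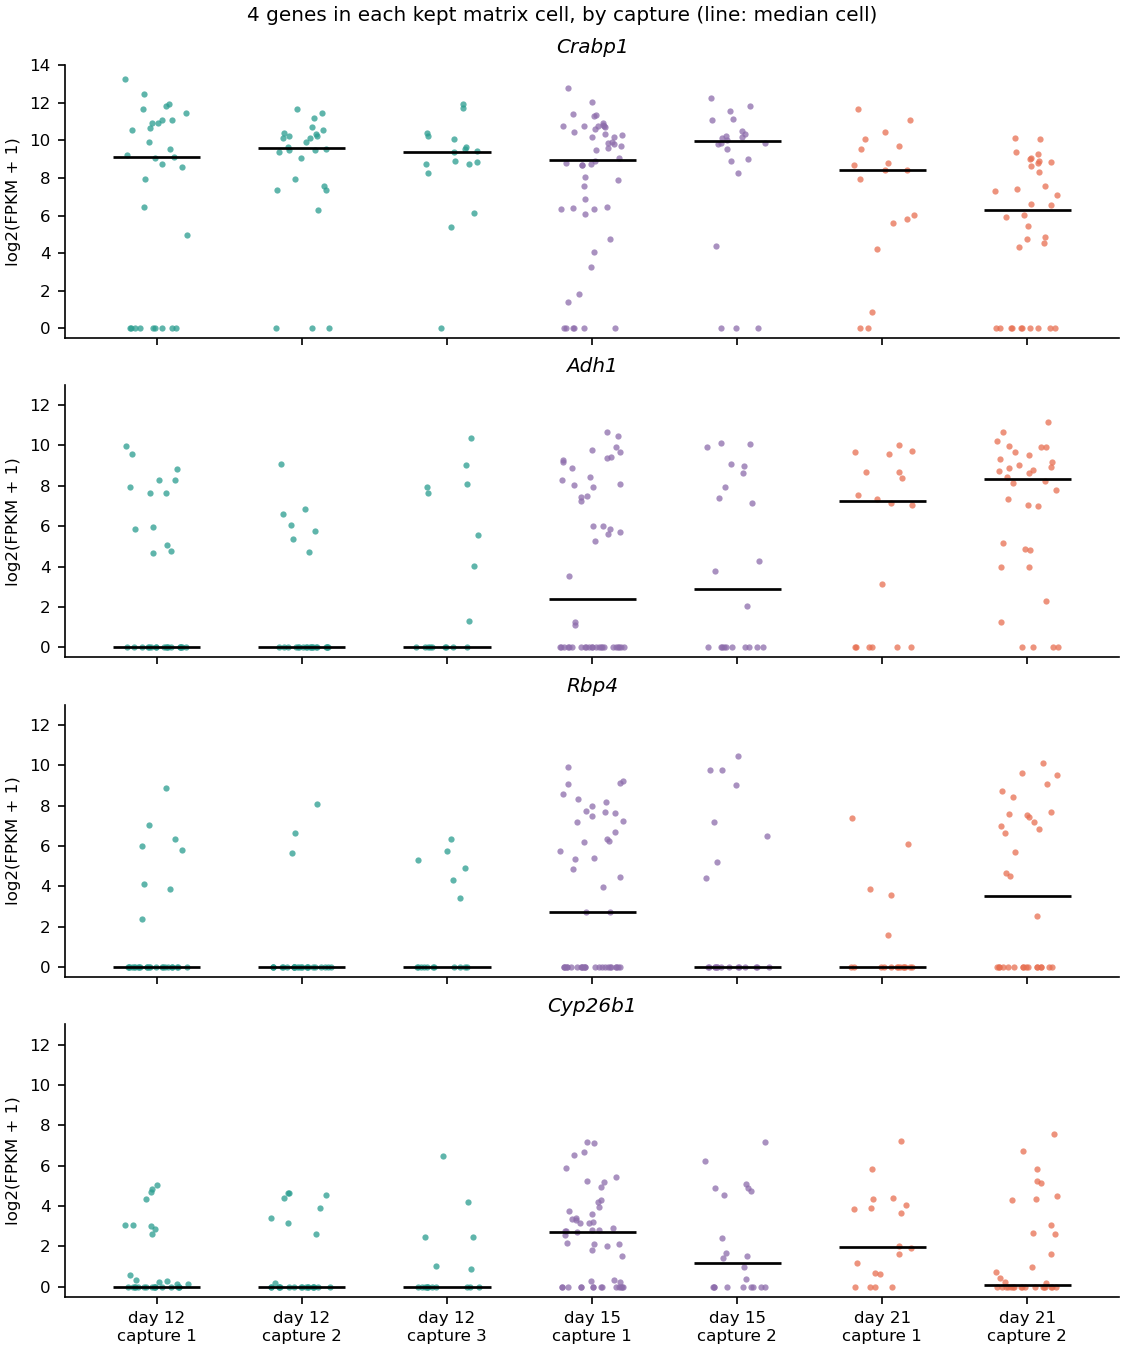
Crabp1, Adh1, Rbp4 and Cyp26b1 in each of 198 matrix cells as log2(FPKM + 1), by capture, with days 12, 15 and 21 in separate colours and a line at the median cell. The median of Crabp1 is lowest in the second capture of day 21 (79.2 FPKM), and that of Adh1 is 0 in all captures of day 12 and highest in that same capture (323 FPKM).

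Adh1 (ENSMUSG00000074207, chr3:138260991-138290698, plus strand), which oxidises retinol, ran the other way. Its mean was 119, 35.7 and 154 FPKM in the captures of day 12, 220 and 234 FPKM at day 15, and 292 and 447 FPKM at day 21, so that the days did not overlap. The share of matrix cells with Adh1 was 38.6% ± 10.5 at day 12 (SD, n = 3), 54.3% ± 0.386 at day 15 (n = 2) and 77.5% ± 15.3 at day 21 (n = 2). The log2 difference of day 21 from day 12 was 2.04 (SE 0.57, limma, adjusted p = 0.48), and that of day 15 from day 12 was 1.37 (SE 0.57, adjusted p = 0.82). When log2(FPKM + 1) was averaged over cells in place of taking the log2 of the mean, the former was 3.48 and passed the threshold (adjusted p = 0.011).

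Cyp26b1 (ENSMUSG00000063415, chr6:84571414-84593908, minus strand) had means of 4.44, 4.88 and 6.9 FPKM at day 12, 17.2 and 16.7 FPKM at day 15, and 17 and 14.7 FPKM at day 21. All 4 later captures lay above the 3 of day 12, and days 15 and 21 overlapped. The log2 difference from day 12 was 1.50 at day 15 (SE 0.67, limma, adjusted p = 0.86) and 1.41 at day 21 (SE 0.67, adjusted p = 0.72). Rarg (ENSMUSG00000001288, chr15:102234938-102257517, minus strand), a receptor of retinoic acid known as the main RAR of skin, had 5.92, 5.05 and 3.91 FPKM at day 12, 6.58 and 7.08 at day 15, and 33.1 and 8.18 at day 21. Its captures did not overlap between days either, but the log2 difference of day 21 from day 12, 1.58 (SE 0.81, adjusted p = 0.72), rested in part on a cell of 347 FPKM in the first capture of day 21, whose mean without it was 14.7 FPKM. The share of matrix cells with Rarg was 44.3% ± 18.2, 40.9% ± 12.9 and 51.6% ± 10.2 at days 12, 15 and 21 (SD, n = 3, 2 and 2).

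Rbp4 (ENSMUSG00000024990, chr19:38116629-38125281, minus strand), the carrier of retinol in blood, varied widely between the captures of day 21. It had 26.4, 15.9 and 13.6 FPKM at day 12, 110 and 180 FPKM at day 15, but 14.3 and 154 FPKM at day 21. Its captures at days 12 and 15 did not overlap, while the first capture of day 21 lay within the range of day 12. The log2 difference of day 15 from day 12 was 2.91 (SE 0.84, limma, adjusted p = 0.67), and that of day 21 from day 12 was 1.37 (SE 0.84, adjusted p = 0.77) and turned to -0.31 without the second capture of day 21.

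Crabp2 (ENSMUSG00000004885, chr3:87948666-87953376, plus strand), which hands retinoic acid to the receptors, was found in 11 of 74 matrix cells at day 12 and in 6 of 72 at day 15, and was listed at 0 in all 52 at day 21, which a share of 5.77% with a read would still allow by a limit of 3 counts (exact 95% upper limit 6.85%). Its means were 20.3, 9.53 and 1.19 FPKM at day 12, 6.23 and 3.21 FPKM at day 15, and 0 in both captures of day 21. The difference from day 12 did not pass the test (limma, adjusted p = 0.61). Aldh1a1 and Rarb stayed between 0 and 3.83 FPKM in each capture, and Aldh1a3, between 0.219 and 2.75 FPKM, was below the minimum mean of 1 FPKM and was not tested between days.

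Rarb (ENSMUSG00000017491, chr14:16430839-16819156, minus strand), the receptor gene whose promoter is shown above, was found mainly in a single capture. It had a value above 0 in 16 of 50 matrix cells of the first capture of day 15 and in 6 of 148 matrix cells of the other 6 captures. The same held in mural cells, with 7 of 18 in that capture and 3 of 39 elsewhere. The levels there were low: the median of the 16 positive matrix cells was 0.47 FPKM, 10 of them lay below 1 FPKM, and 1 cell at 176 FPKM made most of the mean of 3.83 FPKM. That capture held 11 genes detected in at least 30% of its matrix cells and in under 5% of the matrix cells elsewhere, Rarb among them, and the other captures held 3 to 20 such genes by the same rule, which was set after the values were seen. The median depth of its matrix cells was 976679 fragments, against 974486 to 2298280 in the other captures. The part of depth in the detection of Rarb was not tested.

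Members whose captures did not overlap numbered 4 of 8 between days 15 and 12 (Adh1, Cyp26b1, Rarg and Rbp4, all higher at day 15), where 21.8% of all tested genes did not overlap. They numbered 5 of 8 between days 21 and 12 (22.3% of all genes), with Adh1, Cyp26b1 and Rarg higher at day 21 and Crabp1 and Crabp2 lower. Between days 21 and 15 they numbered 4 of 8 (29.7% of all genes), with Adh1 and Rarg higher at day 21 and Crabp1 and Crabp2 lower. The median log2 difference was 0.48 over the 8 members and -0.10 over all genes for day 15 against day 12, and 0.92 and -0.19 for day 21 against day 12. It was -0.09 and -0.05 for day 21 against day 15, with 3 members positive and 5 negative, and the 3 comparisons share captures. The members were chosen with earlier results of these data known, so these counts and medians are a description only. Other features of the matrix cells moved with day as well. The summed FPKM of the contractile genes Acta2, Tagln, Myl9 and Cnn1 was 1073, 1251 and 562 in the captures of day 12, 350 and 355 at day 15, and 168 and 325 at day 21. Y-linked RNA (Ddx3y plus Eif2s3y of at least 10 FPKM) was found in 9, 0 and 12 matrix cells of the captures of day 12, 5 and 0 at day 15, and 0 and 0 at day 21. The part of these in the levels of the retinoid genes was not tested.

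**Figure D3:**
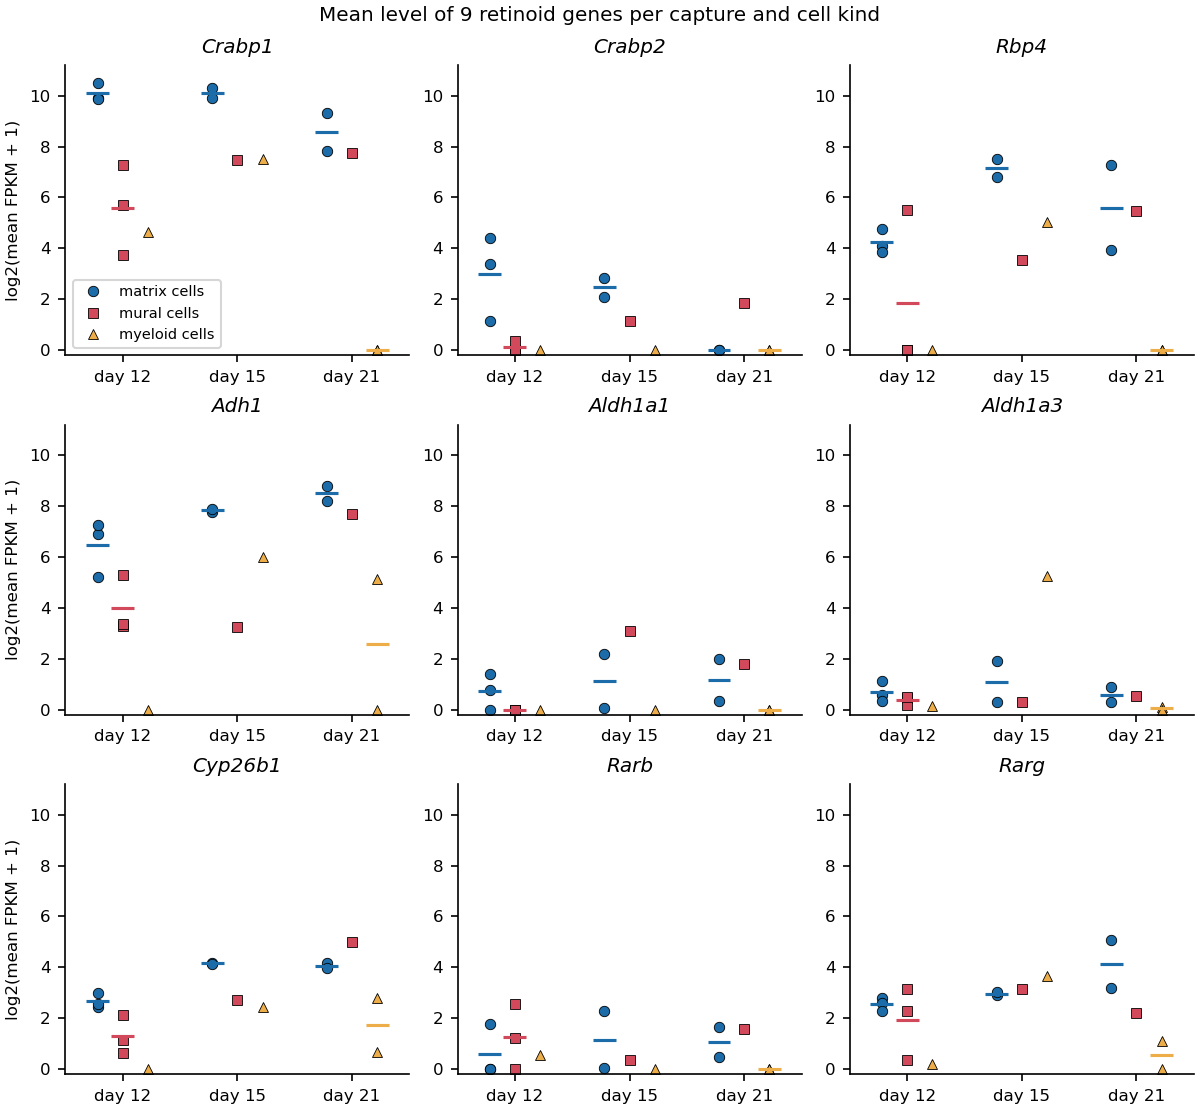
Mean level of the 9 genes as log2(mean FPKM + 1), 1 point per capture with at least 3 cells of the kind, for matrix, mural and myeloid cells at days 12, 15 and 21, with a line at the mean where a day has more than 1 capture. In matrix cells Crabp1 lies lowest at day 21 (633 and 228 FPKM) and Adh1 lies highest there (292 and 447 FPKM). The captures of Adh1 do not overlap between days, and those of Crabp1 overlap between days 12 and 15.

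Mural cells, named here by their Rgs5 level and not by a place in the wound, had less of most members than matrix cells. This held on average against the matrix cells of the same captures, and Crabp1 alone passed the test. Crabp1 and Adh1 were lower in all 5 captures compared, and Crabp2, Cyp26b1 and Aldh1a3 in 4 of 5. Rbp4, Rarg, Rarb and Aldh1a1 were lower in 3 of 5. The median log2 difference of all genes was -0.22. The comparison used the 5 captures with at least 3 mural cells. In it, 1 of 8 members tested passed, against 236 of 13823 genes in all (1.71%). Crabp1 had 154, 12.5 and 51.5 FPKM in the mural cells of the 3 captures of day 12, 175 FPKM in the first capture of day 15 and 212 FPKM in the first capture of day 21. The matrix cells of these captures had 1446, 955, 946, 966 and 633 FPKM, so the kinds did not overlap and each of the 5 captures showed the same direction. The log2 difference was -3.51 (SE 0.55, limma with the capture as a block, adjusted p = 0.012). It was -3.35 with an adjusted p of 0.051 without the third capture of day 12. Crabp1 was present in 15 of 57 mural cells (26.3%, exact 95% interval 15.5 to 39.7).

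Adh1 was also lower in the mural cells of all 5 captures, with 8.79, 9.37, 37.9, 8.61 and 207 FPKM against 119, 35.7, 154, 220 and 292 FPKM in matrix cells, but did not pass (log2 difference -2.49, SE 0.60, adjusted p = 0.073). The remaining members differed by less: -1.78 for Rbp4, -1.69 for Crabp2, -0.95 for Cyp26b1 and -0.91 for Rarg, each with an adjusted p of at least 0.43. Rarb and Aldh1a1 differed by 0.00 and -0.30, and Aldh1a3 was below the minimum level. Rarg was present in 25 of 57 mural cells (43.9%) and in 48% of matrix cells, and Aldh1a3 in 31.6% and 35.4%. RNA of matrix fibroblasts was present in the mural cells to a degree that varied with the cell. All 7 matrix fibroblast genes were detected, and their sum lay at 1873 to 13216 FPKM per capture. Of the 57 mural cells, 19 had at least 1000 FPKM of Col1a1, and these held 11 of the 15 mural cells with Crabp1. The part of that RNA in the level of Crabp1 in mural cells was not tested.

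In myeloid cells the binding, carrier and oxidising members Crabp1, Rbp4 and Adh1 were lower than in matrix cells. In the 4 captures with at least 3 myeloid cells, 3 of 7 members tested passed, all lower, against 861 of 13059 genes (6.59%), and the median log2 difference of all genes was -1.0. Crabp1 had 24.3 FPKM in the myeloid cells of the second capture of day 12, 183 FPKM in the second of day 15 and 0 in both captures of day 21. The matrix cells of these captures had 955, 1279, 633 and 228 FPKM. The log2 difference was -6.30 (SE 1.12, limma with the capture as a block, adjusted p = 0.014), or -5.30 relative to the median of all genes. Rbp4 was at 0 in 3 of the 4 captures and at 31.9 FPKM in the second capture of day 15 (log2 difference -4.44, SE 1.10, adjusted p = 0.04). Adh1 was at 0 in 2 captures and at 62.8 and 34 FPKM in the others (-4.74, SE 1.24, adjusted p = 0.046).

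These 3 calls rested on few cells and captures. Without the second capture of day 12 none of them passed, with adjusted p values of 0.057 for Crabp1, 0.1 for Rbp4 and 0.11 for Adh1. Rbp4 also missed the threshold without either capture of day 21 (0.1 and 0.13), and Adh1 without any 1 of the 4 captures (0.055 to 0.13). Without the block on capture Crabp1 passed (adjusted p = 0.027), and Rbp4 and Adh1 did not (0.061 and 0.065). Crabp1 was present in 4 of 26 myeloid cells, 3 of them among the 4 cells of the second capture of day 15. That capture had 4533 FPKM of Col1a1 in its myeloid cells, against 23.8 to 1248 FPKM in the other 3 captures, and without it Crabp1 differed by -7.46 (adjusted p = 0.019). Cyp26b1 and Rarg differed by -2.23 (adjusted p = 0.14) and -2.24 (0.19). Crabp2 was at 0 in the myeloid cells of all 4 captures, against 9.53, 3.21, 0 and 0 FPKM in matrix cells, and did not pass. Aldh1a1 and Rarb were below the minimum level and were not tested here. Aldh1a3 was the 1 tested member with a positive difference, 0.73 (adjusted p = 0.67), from 1 cell of 143 FPKM in the second capture of day 15. It reached the minimum level only through that cell.

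**Figure D4:**
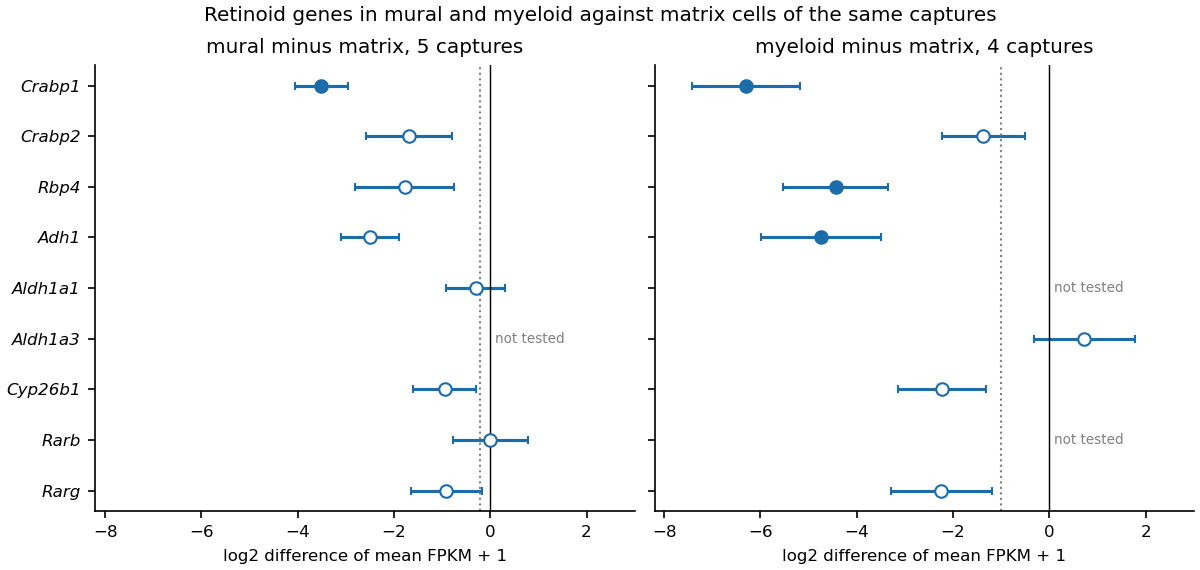
Log2 difference of the mean FPKM + 1 of each member, mural minus matrix cells in 5 captures and myeloid minus matrix cells in 4, with bars of 1 standard error. Filled points passed an adjusted p of 0.05, and the dotted line is the median of all genes tested (-0.22 and -1.0). Crabp1 is filled in both, at -3.51 and -6.30.

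A wider list of 46 genes of retinoid uptake, storage, metabolism and response was examined the same way. In matrix cells 0 of the 26 that passed the filter on low values passed the test between any of the days, and their median log2 difference was -0.11 for day 15 against day 12 and -0.13 for day 21 against day 12. Among carriers and uptake genes, Stra6, the receptor through which cells take up retinol from its carrier, had the highest level. It had 16, 20.3 and 13.3 FPKM in the captures of day 12, 0 and 0.0423 FPKM at day 15, and 0 and 0.00912 FPKM at day 21. It was present in 27 of 74 matrix cells at day 12 and in 1 of 72 and 1 of 52 at days 15 and 21. The log2 difference from day 12 was -4.08 at day 15 (SE 0.83, limma, adjusted p = 0.46) and -4.11 at day 21 (SE 0.83, adjusted p = 0.23), and the groups did not overlap. Fabp5, a fatty acid binding protein that also binds retinoic acid, led the cellular binding genes. It had 370, 385 and 296 FPKM at day 12, 15 and 35.1 FPKM at day 15, and 26.9 and 33.1 FPKM at day 21. Its log2 difference from day 12 was -3.86 at day 15 (SE 0.48, limma, adjusted p = 0.1) and -3.50 at day 21 (SE 0.48, adjusted p = 0.097), without overlap. With log2 values averaged over cells, both genes passed in both comparisons, Stra6 with adjusted p values of 0.035 and 0.022 and Fabp5 with 0.0067 and 0.0017.

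Dhrs3, which reduces retinaldehyde back to retinol, led the 14 genes of retinol and retinaldehyde steps, with 98.5 to 235 FPKM at day 12, 142 and 197 FPKM at day 15 and 385 and 208 FPKM at day 21. Its captures of day 12 overlapped those of both later days, while those of days 15 and 21 did not overlap. Rarres2, the chemerin gene and a gene named for its response to retinoids, led the reported targets with 241 to 305, 430 to 459 and 394 to 792 FPKM at the 3 days (day 21 against day 12 1.08, SE 0.36, adjusted p = 0.57). Ncor1 led the cofactors with 34.4 to 92.2 FPKM per capture, and Rara the receptors with 0.0888 to 13.8 FPKM. Dgat1, which can store retinol as esters, had 0.181 to 52 FPKM. Cyp26a1, a relative of Cyp26b1, was found in 1 of 198 matrix cells.

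**Figure D5:**
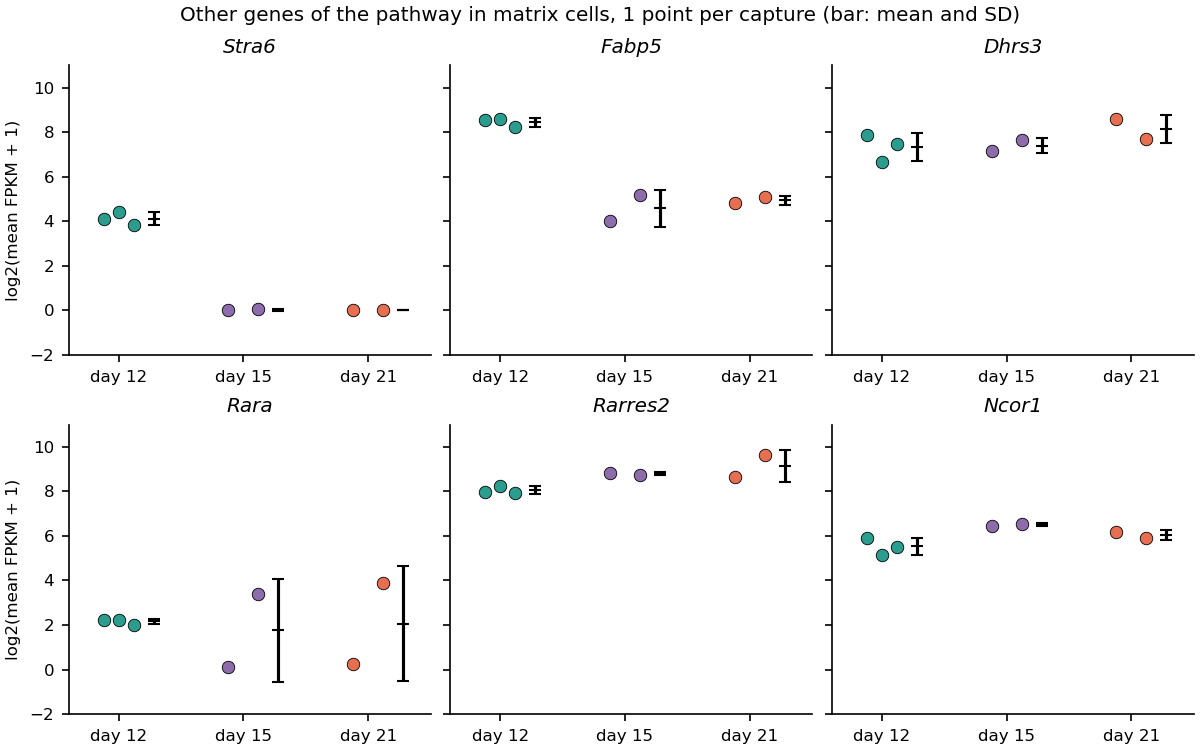
Stra6, Fabp5, Dhrs3, Rara, Rarres2 and Ncor1 in matrix cells as log2(mean FPKM + 1), 1 point per capture for days 12, 15 and 21, with the mean and SD over captures beside them. Stra6 and Fabp5 lie high in the 3 captures of day 12 (13.3 to 20.3 and 296 to 385 FPKM) and low in the 4 later ones, while the captures of Dhrs3 at day 12 (98.5 to 235 FPKM) overlap those of both later days.

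In mural against matrix cells, 236 of 13823 genes passed (1.71%), among them 1 of the 27 genes of the wider list that were tested. This was Rdh5, a dehydrogenase best known from the visual cycle, with 207, 107, 85.6, 95.2 and 234 FPKM in mural cells and 8.39, 28.3, 17.1, 23 and 12.2 FPKM in the matrix cells of the same captures. It was higher in mural cells in 5 of 5 captures, by 2.95 on the log2 scale (SE 0.54, limma, adjusted p = 0.026), and missed the threshold when any capture but the second of day 12 was left out (adjusted p 0.062 to 0.099). In myeloid against matrix cells, 861 of 13059 genes passed (6.59%), and 3 of 27 of the wider list did, of which 2 are described. Dhrs3 was higher in myeloid cells, with 1169, 1608, 1528 and 967 FPKM in the 4 captures against 98.5, 197, 385 and 208 FPKM in matrix cells (2.69, SE 0.47, adjusted p = 0.012, and 0.056 without the second capture of day 12). Rarres2 was lower (-4.37, SE 1.12, adjusted p = 0.043), with 18.2, 378, 4.84 and 4.32 FPKM, and had 0.095 to 0.12 without the second capture of day 12 or either capture of day 21.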

How the data were processed

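Per the submitters' processing notes, the authors aligned reads to mm10 with Bowtie 1.0.0, and they deposited FPKM per gene and cell, estimated with RSEM, in 7 tables with 1 column per cell. Fragment totals are not in the FPKM values and were estimated from the steps between low values of 9426 single-transcript genes of at least 1000 bp, assuming 300 bp fragments. Cells were kept with at least 159000 fragments, at most 11000 genes and at most 15% mitochondrial FPKM. No doublet caller was run. Symbols and positions came from GENCODE release 21 for mouse, with a record for 50376 of 50600 identifiers.

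Mean FPKM per capture and kind (at least 3 cells) was compared as log2(mean + 1) by limma 3.58.1 in R 4.3.3 with a variance trend, over all genes whose mean reached 1 FPKM. Kinds were compared with the capture as a block. Such log2 differences understate changes of low genes. Adjusted p values are those of Benjamini and Hochberg over all tested genes, with 0.05 as threshold, and all tests are two-sided. Shares have exact Clopper-Pearson intervals. The fits and the depth estimate were tested on simulated data. Python 3.11.15 was used for the rest.

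The 9 genes, the wider list and the rules were chosen with earlier results of these data known. Genes named are the 9, those of the wider list that passed a test or led their role in mean level, the 2 genes closest to each member in at least 20% of matrix cells, and markers, except that 1 gene of the wider list is not reported here. Alternatives were the pseudocount (0.1, 10), no filter on low values, all deposited cells, cells with at least 500000 fragments, log2 values averaged over cells, scaling to a common total, no trend, other kind limits, the block, and each capture left out. Capture numbers were not taken to pair captures of different days, since no label ties them and the deviations of same-numbered captures correlated at most 0.025.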

Additional observations from a re-analysis of the deposited data

Results flagged for a closer look

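The 11 kept cells that fell into no kind entered none of the comparisons, and members were above 0 in more of them than the 3 cells set as a floor. Crabp1 was present in 6 of these cells, up to 2214 FPKM, Adh1 in 5, up to 490 FPKM, and Rarg in 8. Aldh1a3 and Cyp26b1 were each present in 5 cells. Of the 11 cells, 5 came from the first capture of day 15.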

How the results depend on the processing

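The calls between kinds changed with the processing, and the cause was not tested. Members past the threshold in mural against matrix cells numbered 1, but 0 with no filter on low values (more genes tested) or no variance trend, 2 with all deposited cells or with log2 averaged over cells, and 0 to 1 with a capture left out. In myeloid against matrix cells they numbered 3, but 1 with a pseudocount of 10, 0 with no filter, 1 without the replicate block and 0 to 2 with a capture left out. Between days 21 and 12 they numbered 0, and 1 (Adh1) with log2 averaged over cells.

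Over all genes, the 236 mural calls became 19 with no filter, 657 with log2 averaged over cells, 90 with no trend and 102 to 228 with a capture left out. The 861 myeloid calls became 183 with a pseudocount of 10, 31 with no filter, 485 with all cells, 1365 with scaling (median of all genes -1.20) and 108 to 340 with a capture left out. Between days 15 and 12 log2 averaged over cells gave 28 calls, and between days 21 and 15 a pseudocount of 10 gave 1. The single call between days 21 and 12 became 0 with a pseudocount of 0.1, no filter, deeper cells, scaling or any capture left out, 70 with log2 averaged over cells and 3 with a Col1a1 limit of 2000 FPKM. Capture number as a replicate block gave 0 calls between days.

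The difference in share of Crabp1 cells between days 21 and 12 was -4.78 percentage points, and -13.9 to 4.37 with a capture left out, positive (0.0239 and 4.37) without the third capture of day 12 or the second of day 21.

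Over the members tested and the wider genes with an unadjusted p under 0.05, 966 log2 differences kept their direction and side of the threshold, 44 lost their call, 16 gained one, and 30 changed sign, none of the 30 past the threshold. For day 15 against day 12, Crabp1 was -0.11 with all cells, -0.07 with deeper cells, -0.08 with the replicate block, -0.02 with a Col1a1 limit of 2000 FPKM and -0.18 to 0.23 with a capture left out. In that comparison Crabp2 was -1.44 to 0.20 with a capture left out, Aldh1a1 -0.04 with log2 averaged over cells, and Rarg -0.31 with all cells and -0.08 with log2 averaged over cells. For day 21 against day 12, leaving out a capture gave -0.31 to 3.04 for Rbp4, -0.40 to 1.27 for Aldh1a1 and -0.10 to 1.06 for Rarb. For day 21 against day 15 it gave -3.21 to 0.13 for Rbp4, -1.04 to 0.87 for Aldh1a1, -0.19 to 0.01 for Cyp26b1 and -1.21 to 0.49 for Rarb. There Aldh1a1 was -0.02 with a pseudocount of 10, Cyp26b1 0.13 with all cells and 0.04 with deeper cells, and Rarb 0.64 with a pseudocount of 0.1 and 0.13 with scaling. In mural against matrix cells Rarb was -0.00 with a pseudocount of 10, -0.33 with all cells, -0.51 with deeper cells, -0.06 with scaling and -0.63 to 0.48 with a capture left out.

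Few captures and few mural and myeloid cells limit what can be called, and the 2 captures of day 15 were the shallowest. Genes of few fragments per cell, such as Aldh1a3 and Rarb, are near the limit of detection.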
